A study of Rattus norvegicus with 10 samples.

Results

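Splenic M2 macrophages that carried no dye from transferred stem cells were compared with those of nephritic rats that received no cell therapy. The comparison took 5 of the 10 sequenced libraries, chosen by their labels alone, namely 3 libraries of DiD-negative macrophages (EV-) and 2 of untreated glomerulonephritis (GN), over all 9003 genes of the table. DiD is a lipophilic dye with which the human adipose-derived mesenchymal stem cells (ASCs) had been stained. Macrophages that took up stained membrane became DiD-positive (EV+, n = 3). The paper proposes that most of this membrane arrived as extracellular vesicles (EVs), and that a small number of leukocytes had engulfed ASCs. The EV- macrophages therefore came from rats that had nephritis and had been given ASCs, but showed no dye at the sort. Untreated, healthy rats provided the control libraries (n = 2).

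All rats were of the strain WKY /Ncrj, and the nephritis model used females of 7 to 12 weeks. The GN, EV+ and EV- groups all carried anti-glomerular basement membrane nephritis, induced by TF78, a mouse monoclonal IgG against the a4(IV)NC1 domain of collagen. Only the EV+ and EV- groups had received ASCs, by intravenous injection. The cells were taken from the spleen by flow cytometry. The day of the sort and whether an EV+ and an EV- library shared a rat were not given in the sources used here. A cell without detectable dye may still have met vesicles or soluble factors, so EV- is a group defined by the dye, not an untreated group. Since EV- differs from GN in the ASC injection and in the gate, these cannot be told apart in this comparison.

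Macrophages present peptides of engulfed material to helper T cells on MHC class II molecules, whose genes are switched on together by the transactivator CIITA. They also handle lipids from dead cells through lipases, transfer proteins and the nuclear receptor LXR. When cells are stimulated or stressed, immediate early genes such as those of the AP-1 and EGR families rise within minutes, followed by feedback genes whose products shut signaling and cytokine mRNAs down.

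The 10 libraries held between 19270515 and 26617093 reads on the tabulated genes, with 25141257 to 26435903 in GN and 19270515 to 25524439 in EV- libraries. A count of 3 reads equaled 0.113 to 0.153 CPM (read counts scaled to library size, here TMM-normalized), a floor that covers counting error only. Macrophage genes were abundant in the 5 libraries compared. The receptor gene Csf1r lay between 6809 and 7544 CPM and the lysozyme gene Lyz2 between 17938 and 20120 CPM. The alternative activation markers Arg1, Mrc1 and Cd163 lay between 0 and 2.92 CPM. They do not stand for the wider list of 17 genes of the IL-10 axis and M2 polarization. Its median log2(CPM + 1) was 6.72 to 6.84 in EV- and 6.85 and 6.91 in GN libraries. EV- replicate 1 stood apart in NK and T cell genes, where it was the highest of all 10 libraries in 24 of 30 markers. EV- replicate 2 was the lowest of the EV- libraries in 11 of 12 class II genes, in 37 of 42 interferon-stimulated genes and in 76 of 79 ribosomal protein genes. The methods name biological replicates, and the labels give no further detail of the animals.

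Against GN, 29 genes were lower in EV- macrophages (0.322% of the genes tested) and 5 were higher (0.0555%), by limma on log2(CPM + 1) at a Benjamini-Hochberg FDR under 0.1. Fold changes are on that scale, which understates the change of low genes. Without adjustment, 333 genes were lower and 374 higher at p under 0.05. In the 29 lower genes every EV- library lay below both GN libraries, as 12.8% of all genes did, and in the 5 higher genes every EV- library lay above, as 12.6% did. The lower genes included 6 of MHC class II presentation, Pltp and Lpl, which act on lipoproteins, and the immediate early genes Egr1, Junb, Ppp1r15a and Hes1. Of the 34 called genes, 33 were also called by both edgeR's quasi-likelihood test and DESeq2 on the recovered reads, and the exception was Pvalb. Pltp, Lpl, Plvap, Cd83 and RT1-Da were called in each of the 5 fits that left out 1 EV- or GN library. The rest depended on single libraries of either group. Without GN replicate 1, 5 of the 29 lower and none of the 5 higher genes stayed called, and without GN replicate 2, 9 and 1 did, with the lone GN library then assumed to vary like the other groups. Without EV- replicate 1, 2 or 3, 21, 19 and 18 of the 29 lower and 4, 2 and 2 of the 5 higher genes stayed called. Hes1, Plek, Serpinb1a and Tmem50b were called in none of these fits. Without EV- replicate 2, 22 genes were called in all.

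**Figure D1:**
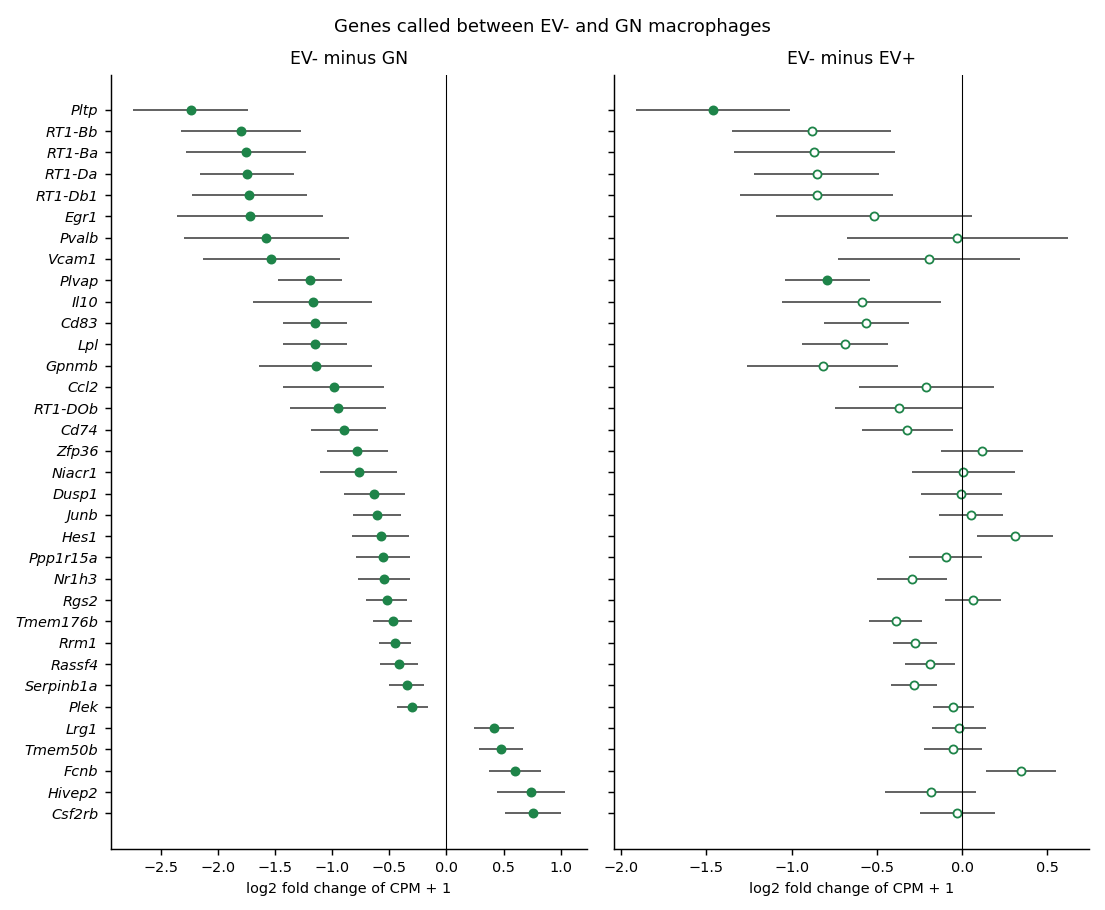
Log2 fold changes of CPM + 1 with 95% intervals for the 34 genes called between EV- and GN macrophages, as EV- minus GN on the left and EV- minus EV+ on the right. Filled points have an adjusted p under 0.1 by limma, which holds for all genes on the left and only for Pltp and Plvap on the right.

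Genes of class II presentation had the lowest median of the lists examined. Of the 12 genes of the list, all in the table, 6 fell, none rose and 11 had a negative fold change, with a median of -0.92 on the log2 scale beside 0.00 over all genes. The stretches of promoter printed here belong to the called genes of the list other than Cd74. Each is 100 bases long and ends 26 bases before the RefSeq start of its gene. The stretches come from RefSeq on GRCr8, whereas the authors aligned to rn6, and are written in the direction of the gene. Capitals mark TGATTGG, an inverted CCAAT or Y box, and AACNGATG, the core of the X box that class II promoters hold upstream of it.
RT1-Da (chr20:4515290-4515389, + strand): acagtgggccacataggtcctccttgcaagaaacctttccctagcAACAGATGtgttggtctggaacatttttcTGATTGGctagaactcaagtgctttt
RT1-Db1 (chr20:4560188-4560287, - strand): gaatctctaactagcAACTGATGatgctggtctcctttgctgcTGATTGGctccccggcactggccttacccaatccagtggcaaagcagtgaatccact
RT1-Ba (chr20:4576932-4577031, + strand): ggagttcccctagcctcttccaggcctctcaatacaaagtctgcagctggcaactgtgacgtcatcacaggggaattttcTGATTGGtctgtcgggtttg
RT1-Bb (chr20:4604144-4604243, - strand): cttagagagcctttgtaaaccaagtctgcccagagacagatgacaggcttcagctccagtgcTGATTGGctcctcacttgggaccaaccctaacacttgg
RT1-DOb (chr20:4627549-4627648, - strand): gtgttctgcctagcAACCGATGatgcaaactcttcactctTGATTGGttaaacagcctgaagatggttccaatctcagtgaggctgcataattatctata

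These 5 genes lie together on chromosome 20, with at most 4 protein-coding genes between any pair of them, a count that includes members of the 5. All 5 hold TGATTGG in this window. Searching both strands of the 250 bases before the start, 7 of the 10 class II promoters with an entry held TGATTGG, against 6.421% of 33469 rat promoters and 9.641% of the 7292 that belong to genes of the table. AACNGATG was found in 4 of the 10, against 2.169% and 1.221%. The 7 include RT1-DMa and RT1-DOa, and the 4 include Ctss, none of which was called. Neither set includes the called gene Cd74. RT1-Da, RT1-Db1 and RT1-DOb carry both motifs. A match in these letters describes the sequence and is no measurement of binding.

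RT1-Da, the alpha chain of the D molecule, had 110, 64.6 and 97.9 CPM in EV- replicates 1, 2 and 3, against 318 and 282 CPM in GN. EV- macrophages thus held 30.3% of the GN mean, a log2 fold change of -1.75 (SE 0.192, adjusted p = 0.000832 by limma). Its partner RT1-Db1, the beta chain, had 54.8, 29.4 and 48.9 CPM against 147 and 141 CPM (-1.73, SE 0.234, adjusted p = 0.00493). No EV- library came near a GN library in either chain. RT1-Ba, the alpha chain of the B molecule, had 45.0, 24.5 and 41.8 CPM against 132 and 116 CPM (-1.76, SE 0.246, adjusted p = 0.00617). RT1-Bb, its beta chain, had 56.1, 28.8 and 50.4 CPM against 152 and 155 CPM (-1.80, SE 0.243, adjusted p = 0.00493). The 4 chains fell by nearly the same factor, to between 29.4% and 30.8% of GN, and EV- replicate 2 was the lowest in each. RT1 genes form a polymorphic family with near-identical copies, between which the authors' counting could have divided reads, so the split among the chains is uncertain.

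Cd74 encodes the invariant chain that occupies the groove of new class II molecules. It had 701, 523 and 659 CPM in EV- and 1202 and 1115 CPM in GN libraries, a smaller fall than that of the chains (-0.89, SE 0.138, adjusted p = 0.0130). RT1-DOb, part of the DO protein that restrains peptide loading, had 5.15, 4.64 and 3.85 CPM against 9.27 and 10.1 CPM (-0.95, SE 0.195, adjusted p = 0.0796). Ciita, the transactivator itself, had 4.13, 0.561 and 1.52 CPM against 8.91 and 9.94 CPM, and its log2 fold change of -1.94 missed the threshold (SE 0.422, adjusted p = 0.110). Its EV- libraries lay far apart, yet each was below both GN libraries. DESeq2 called Ciita, and so did limma without EV- replicate 1.

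The other class II genes did not pass. Ifi30, a lysosomal reductase that opens disulfide bonds of antigens, had 148, 132 and 172 CPM in EV- and 194 and 175 CPM in GN libraries (-0.29, adjusted p = 0.562), so that EV- replicate 3 came close to GN. Ctss, the protease that trims the invariant chain, was the only member with a positive fold change (0.17, adjusted p = 0.567). RT1-DMa and RT1-DMb, which exchange peptides on class II molecules, differed by -0.09 and -0.15 (adjusted p = 0.962 and 0.914), with overlapping groups. RT1-DOa lay at 1.73 CPM or less in the 5 libraries. Without GN replicate 1, RT1-Da alone stayed called (adjusted p = 0.0367), and without GN replicate 2 the 4 chains did. In bulk libraries, fewer class II-rich cells and less class II RNA per cell cannot be told apart. Dendritic cell markers, which could bear on this, are listed further on.

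**Figure D2:**
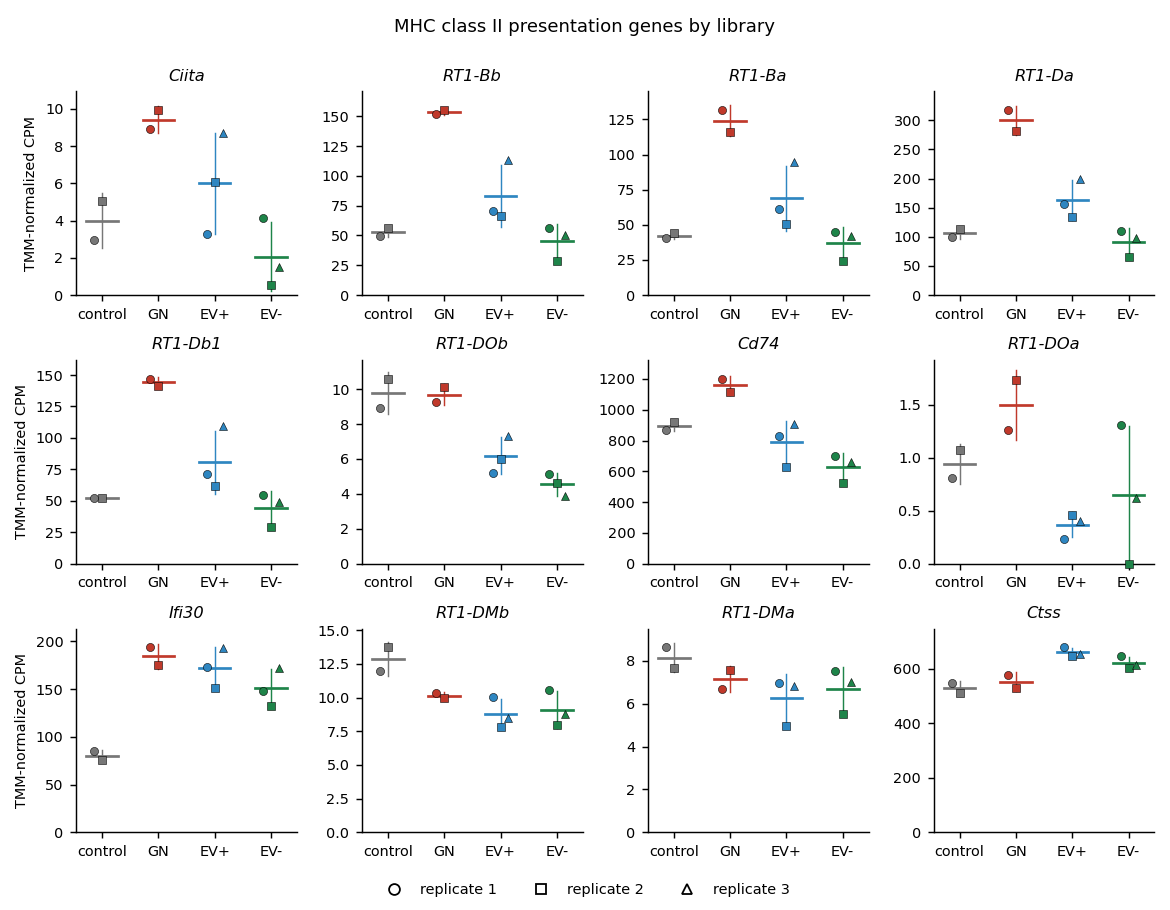
TMM-normalized CPM of the 12 class II presentation genes in all 10 libraries, by group, with symbols for the replicate number, the group mean as a horizontal line and the SD as a vertical one. For the 4 chain genes RT1-Da, RT1-Db1, RT1-Ba and RT1-Bb the EV- libraries lie near or below the control libraries and below both GN libraries, with the EV+ libraries between EV- and GN.

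Relative to control, GN macrophages had more of the 4 chains, by 1.45 to 1.53 on the log2 scale (adjusted p = 0.00373 to 0.0135), in a comparison that called 1.75% of all genes. The EV- libraries differed from control by -0.23 to -0.28 in the same genes (adjusted p = 0.637 to 0.765, in a comparison with 2.84% called). For RT1-Da the 95% interval of that difference ran from -0.67 to 0.15. Cd74 and RT1-DOb went below control, by -0.52 and -0.96 (adjusted p = 0.0840 and 0.0243). The same GN libraries enter the comparison with control and that with EV-.

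The EV+ libraries lay between EV- and GN for the chains. RT1-Da had 156, 133 and 200 CPM in EV+ replicates 1, 2 and 3, and the EV- libraries were lower by -0.85 (95% interval -1.22 to -0.48, adjusted p = 0.247, in a comparison that called 0.0222% of genes). With the replicate number as a block this difference had an adjusted p of 0.0730. The other 3 chains were lower in EV- than in EV+ by -0.85 to -0.88 (adjusted p = 0.521 to 0.574, and 0.118 to 0.180 with the block). EV+ libraries differed from GN by -0.87 to -0.92 in the 4 chains (adjusted p = 0.187 to 0.411, with 0.122% of genes called), a comparison that uses the same GN libraries.

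Pltp and Lpl, whose products act on lipoproteins, both fell. Pltp encodes phospholipid transfer protein, which moves phospholipids between lipoproteins and is a classical LXR target. It had 1.94, 2.91 and 2.14 CPM in EV- libraries against 17.7 and 12.01 CPM in GN, a log2 fold change of -2.24 (SE 0.236, adjusted p = 0.000832), or 15.7% of the GN mean. The EV- libraries held 152 reads of Pltp in all. Lpl, the lipase that releases fatty acids from lipoproteins, had 41.2, 41.7 and 38.0 CPM against 108 and 76.3 CPM (-1.15, SE 0.131, adjusted p = 0.000832). The EV- libraries of Lpl were tightly grouped, while the 2 GN libraries were not. Nr1h3, which encodes LXR alpha and was named after its value was seen, had 55.2, 59.8 and 47.8 CPM against 77.3 and 81.8 CPM (-0.55, adjusted p = 0.0609). Gpnmb, a transmembrane glycoprotein of phagocytes loaded with lipid, had 17.2, 14.5 and 12.8 CPM against 37.0 and 30.7 CPM (-1.14, SE 0.231, adjusted p = 0.0749).

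Pltp and Lpl were also higher in GN than in control (1.68 and 1.21, adjusted p = 0.00579 and 0.000958). In EV- macrophages they differed from control by -0.56 and 0.06 (adjusted p = 0.319 and 0.900). Of the 27 genes of cholesterol synthesis and LDL uptake, none was called by limma or DESeq2 (4 at an unadjusted p under 0.05), 20 had a positive fold change, and the median was 0.14. Scap, the escort of the sterol-sensing transcription factors, had the smallest p of the list, with 36.6, 35.8 and 45.3 CPM in EV- and 33.7 and 15.9 CPM in GN libraries (0.72, adjusted p = 0.347).

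Surface proteins were among the called genes too. Plvap, best known as the diaphragm protein of endothelial fenestrae, had 85.5, 68.1 and 72.3 CPM in EV- libraries against 183 and 163 CPM in GN (-1.19, SE 0.130, adjusted p = 0.000832). The adhesion molecule gene Vcam1 had 2.72, 0.917 and 2.33 CPM against 6.11 and 8.74 CPM (-1.53, SE 0.278, adjusted p = 0.0406). Both sets of EV- libraries lay apart from GN. Of the 4 stromal and endothelial markers in the table none was called by limma or DESeq2 (1 at an unadjusted p under 0.05). That gene was Cxcl12, which lay below both GN libraries in every EV- library (-0.81, adjusted p = 0.507 by limma). The other 3 had positive fold changes. Among them, Pecam1, an endothelial and leukocyte adhesion gene, lay at 158 to 194 CPM in EV- and 165 to 179 CPM in GN libraries. Pvalb, a calcium-binding protein of muscle and neurons, had 3.71 and 1.24 CPM in GN. It had 0.292 CPM in EV- replicate 1 and 0 in the other two, 6 reads in all. Its fold change of -1.58 (adjusted p = 0.0985) rests on the pseudocount and on GN replicate 1, without which the adjusted p was 0.806.

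Cytokine genes fell in part. Il10, the anti-inflammatory cytokine, had 5.20, 4.89 and 6.54 CPM in EV- libraries, below the 12.7 and 14.7 CPM of GN (-1.17, SE 0.243, adjusted p = 0.0810). Control macrophages had 25.2 and 17.0 CPM, so that the EV- libraries were lower still than control (-1.74, adjusted p = 0.00148). In EV+ libraries the values were 11.99, 9.14 and 6.11 CPM, and EV- differed from EV+ by -0.59 (95% interval -1.06 to -0.12, adjusted p = 0.994, and 0.895 with the block). Ccl2, the attractant of monocytes, had 15.4, 23.1 and 20.3 CPM against 37.9 and 40.9 CPM in GN (-0.99, SE 0.207, adjusted p = 0.0833). Cd83, a surface marker of activated antigen-presenting cells, had 49.5, 51.1 and 51.9 CPM against 116 and 113 CPM (-1.15, SE 0.130, adjusted p = 0.000832). Neither the EV- nor the GN libraries of Cd83 differed by more than a few CPM among themselves.

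Of 23 inflammatory cytokine and chemokine genes, Ccl2 fell, none rose and 18 had negative fold changes (median -0.23). Cxcl10, an attractant of T cells induced by interferon, had 11.9, 7.65 and 12.6 CPM in EV- and 23.3 and 23.7 CPM in GN libraries (-1.09, adjusted p = 0.194). Ccl3, an attractant of monocytes and NK cells, had 253, 178 and 211 CPM against 325 and 325 CPM (-0.61, adjusted p = 0.232). The groups of both genes were apart, but the differences did not pass. Il1b had 2368, 2392 and 3133 CPM against 2917 and 2770 CPM, and these groups overlapped (-0.12, adjusted p = 0.903). Tnf lay at 0.467 to 0.826 CPM in EV- and 0.979 to 1.06 CPM in GN libraries (-0.28, adjusted p = 0.869).

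Among 24 other targets of NF-kB and TNF, Cd83 and Vcam1 fell and the median was -0.08. The adhesion gene Icam1 had 483, 440 and 462 CPM in EV- and 561 and 544 CPM in GN libraries (-0.26, adjusted p = 0.576). No member of the 14 NF-kB subunits and inhibitors was called by limma (3 at an unadjusted p under 0.05, and 2 by DESeq2). The smallest p belonged to Bcl3, a nuclear cofactor of NF-kB, which had 106, 97.9 and 97.9 CPM against 79.3 and 71.4 CPM (0.41, adjusted p = 0.134).

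Immediate early genes fell in part. In the list of 16 AP-1 and ATF factors, Junb fell, and 12 of 16 had negative fold changes with a median of -0.37. In the list of 30 other immediate early factors, Egr1, Ppp1r15a and Hes1 fell, with 24 of 30 negative and a median of -0.25. The zinc finger factor gene Egr1 had 43.4, 20.4 and 29.5 CPM in EV- libraries, 88.7 and 113 CPM in GN and 253 and 132 CPM in control (-1.72 against GN, SE 0.299, adjusted p = 0.0298). Junb, an AP-1 subunit, had 1105, 1235 and 1238 CPM in EV- and 1896 and 1744 CPM in GN libraries (-0.61, SE 0.0968, adjusted p = 0.0147). Every EV- library of both genes was below every GN and control library. Without either GN library, no gene of these 2 lists was called.

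Ppp1r15a directs the phosphatase that restarts translation after stress. It had 536, 543 and 623 CPM in EV- and 872 and 794 CPM in GN libraries (-0.56, SE 0.112, adjusted p = 0.0749). Hes1, a repressor downstream of Notch, had 40.4, 37.2 and 41.1 CPM against 53.1 and 66.4 CPM (-0.57, SE 0.116, adjusted p = 0.0749). It was called in none of the fits that left out a library, where its adjusted p reached 0.658. The feedback genes Zfp36 and Dusp1 fell in the same way. Zfp36, which encodes tristetraprolin and marks cytokine mRNAs for decay, had 1186, 882 and 896 CPM against 1770 and 1598 CPM (-0.78, SE 0.124, adjusted p = 0.0147). Dusp1, the phosphatase that switches off MAP kinases, had 3599, 2798 and 3392 CPM against 5501 and 4592 CPM (-0.63, SE 0.123, adjusted p = 0.0633).

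The start-proximal promoters of 3 of these genes hold matches to response elements that many immediate early genes carry. The stretches are the 150 bases before the RefSeq start on GRCr8, in the direction of the gene. Capitals mark TGACGTCA, the full cAMP response element, in Ppp1r15a and Dusp1. In Zfp36 they mark a match to the CArG box, the element of serum response factor, at -32 to -23 from the start. Whether any factor binds these matches was not tested.
Ppp1r15a (chr1:105139597-105139746, - strand): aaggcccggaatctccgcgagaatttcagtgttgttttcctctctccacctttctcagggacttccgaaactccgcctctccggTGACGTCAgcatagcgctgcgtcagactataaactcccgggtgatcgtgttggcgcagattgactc
Dusp1 (chr10:17184703-17184852, + strand): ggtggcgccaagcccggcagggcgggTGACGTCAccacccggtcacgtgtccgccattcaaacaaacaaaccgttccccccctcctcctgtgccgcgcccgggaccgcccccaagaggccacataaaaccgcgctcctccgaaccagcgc
Zfp36 (chr1:92799109-92799258, - strand): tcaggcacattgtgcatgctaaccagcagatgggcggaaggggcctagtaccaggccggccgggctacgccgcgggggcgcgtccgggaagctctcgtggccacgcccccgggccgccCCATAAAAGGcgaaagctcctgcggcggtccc

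Over both strands of the 250 bases before the start, TGACGTCA occurs in 1.587% of all rat promoters and in 3.168% of those of table genes. The CArG box occurs in 1.497% and 1.193%. The Egr1 promoter held 2 CArG boxes, and those of Junb and Hes1 held neither element in this window. RT1-Ba holds TGACGTCA as well, written in lower case in its stretch printed with the class II genes. The AP-1 site TGAGTCA, or TGACTCA on the other strand, occurs in 4.046% of all promoters and 3.031% of those of table genes, and in none of the class II, immediate early and feedback promoters searched. No motif overlapped another in these promoters.

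Other members of these lists were lower without passing. Fos had 1873, 841 and 988 CPM in EV- and 2151 and 1924 CPM in GN libraries (-0.81, adjusted p = 0.324). Jun had 474, 151 and 119 CPM against 460 and 419 CPM (-1.10, adjusted p = 0.609), so that EV- replicate 1 was above both GN libraries while replicates 2 and 3 were far below. The heat shock gene Hspa1a had the same split, at 525, 115 and 112 CPM against 365 and 327 CPM (-0.86, adjusted p = 0.782). Fosb had 17.5, 6.52 and 8.75 CPM against 26.3 and 27.2 CPM (-1.33, adjusted p = 0.127). Atf3, a stress-induced factor, had 46.6, 42.6 and 60.1 CPM against 69.7 and 73.5 CPM (-0.53, adjusted p = 0.307). Dusp2 had 49.8, 38.5 and 54.3 CPM against 113 and 78.4 CPM (-0.99, adjusted p = 0.171).

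The group means stepped down from control to GN and from GN to EV- in 9 of the 16 AP-1 and ATF genes (56.2%) and in 20 of the 30 other immediate early genes (66.7%), as they did in 17.6% of all genes tested. Of the 24 other targets of NF-kB and TNF 13 had this order, and of the 79 ribosomal protein genes 66 did. Between GN and control, Hes1, Ppp1r15a and Zfp36 differed by -1.19, -0.82 and -0.62 (adjusted p = 0.000435, 0.00543 and 0.0480). In class II presentation, 8 of 12 genes had a GN mean above control and an EV- mean below GN, an order found in 31.4% of all genes. The same GN means enter both steps of these counts. Against EV+, the EV- libraries differed by -0.10 to 0.31 on the log2 scale in Ppp1r15a, Dusp1, Junb, Zfp36 and Hes1 and by -0.52 in Egr1 (95% interval -1.09 to 0.06), with adjusted p-values of 0.962 or more.

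**Figure D3:**
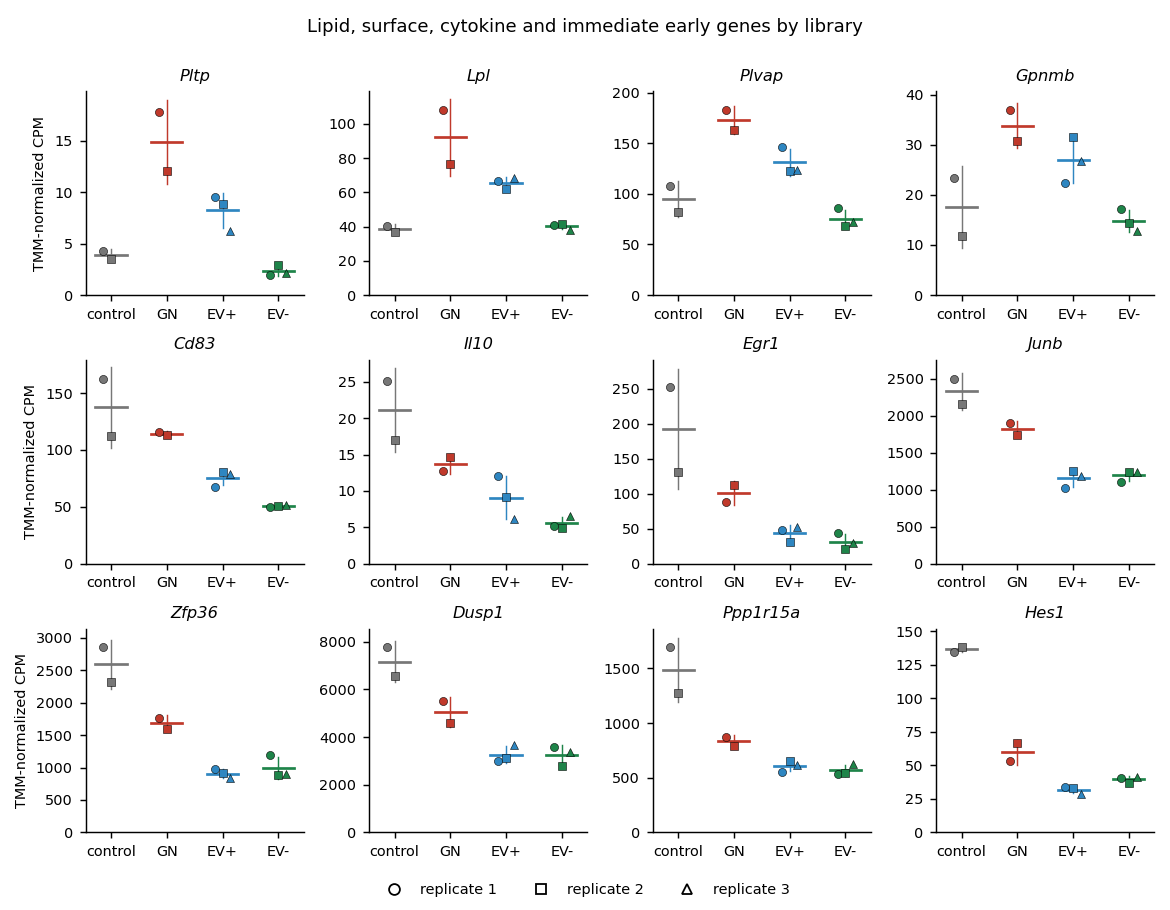
TMM-normalized CPM of 12 called genes in all 10 libraries, by group, with symbols for the replicate number, the group mean as a horizontal line and the SD as a vertical one. Pltp, Lpl and Plvap are highest in GN and lowest in EV- or control, whereas Egr1, Junb, Zfp36, Dusp1, Ppp1r15a and Hes1 step down from control to GN and again to the EV+ and EV- libraries.

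Lower genes outside these groups included Niacr1 and Rrm1. Niacr1, the receptor for niacin and ketone bodies, had 63.7, 51.3 and 42.5 CPM in EV- libraries against 87.8 and 90.2 CPM in GN (-0.77, SE 0.157, adjusted p = 0.0780). Rrm1, the large subunit of ribonucleotide reductase, had 311, 338 and 317 CPM against 447 and 433 CPM (-0.45, SE 0.0672, adjusted p = 0.0106). Rrm1 was the only called gene of the 28 cell cycle and replication genes, 20 of which had positive fold changes (median 0.15). EV- replicate 1 was the highest of all 10 libraries in 17 of the 28, and without it the median was 0.05. The other genes, named here after their values were seen so that each called gene is accounted for, fell by 0.53 or less on the log2 scale. These are Rgs2, a brake on G protein signaling (-0.53, adjusted p = 0.0175), Tmem176b, a membrane protein of myeloid cells (-0.47, adjusted p = 0.0239), and Rassf4, a Ras-association domain protein (-0.41, adjusted p = 0.0471). Serpinb1a, an inhibitor of neutrophil proteases, and Plek, a kinase substrate of leukocytes and platelets, fell by 0.35 and 0.30 on the log2 scale (adjusted p = 0.0796 and 0.0833). Tmem176b differed from the rest in that EV- libraries still lay above control, by 0.35 (adjusted p = 0.0451).

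Of the 29 lower genes, 9 were higher and 4 lower in GN than in control by the test, which called 1.75% of all genes. The EV- libraries were lower than control in 15 of the 29 and higher in 1, Tmem176b, where 2.84% of all genes were called. The 29 were chosen for high GN and low EV- values in these same libraries. That choice favors GN above control and EV- below control, so these counts are no separate evidence. Trim46 and Tp53inp2 were missed by limma but called by both edgeR's quasi-likelihood test and DESeq2, and lay below GN in every EV- library. Trim46 had 12.2, 14.5 and 11.4 CPM against 23.7 and 19.1 CPM (-0.71, adjusted p = 0.117), and Tp53inp2, a protein of autophagosome formation, had 30.3, 35.1 and 35.5 CPM against 48.9 and 47.0 CPM (-0.50, adjusted p = 0.110).

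Rises called by limma were few, the largest being 0.76 on the log2 scale. Fold changes of up to 2.69 were not called by it. DESeq2 and edgeR's likelihood-ratio test each called 54 rises. Csf2rb, the shared receptor chain for GM-CSF, IL-3 and IL-5, had 221, 249 and 237 CPM in EV- libraries against 136 and 141 CPM in GN (0.76, SE 0.114, adjusted p = 0.0107), or 169.98% of the GN mean. Its EV- libraries were also above control (0.96, adjusted p = 0.000375). Hivep2, a zinc finger transcription factor, had 21.9, 27.2 and 21.8 CPM against 13.7 and 13.7 CPM (0.74, SE 0.139, adjusted p = 0.0487). Fcnb, the lectin ficolin B of myeloid cells, had 139, 124 and 155 CPM against 83.1 and 99.8 CPM (0.60, SE 0.106, adjusted p = 0.0339). The secreted glycoprotein gene Lrg1 had 370, 411 and 389 CPM against 289 and 295 CPM (0.41, SE 0.0818, adjusted p = 0.0673), and the membrane protein gene Tmem50b had 114, 111 and 115 CPM against 85.0 and 77.1 CPM (0.48, SE 0.0889, adjusted p = 0.0471).

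In GN, Hivep2, Tmem50b and Fcnb were below control (-0.86, -0.56 and -0.48, adjusted p = 0.0135, 0.0126 and 0.0747), in a comparison that called 1.75% of all genes. Their EV- libraries did not differ from control by the test (adjusted p = 0.714 to 0.792). These genes were chosen on the same GN and EV- libraries. The EV+ libraries were higher than GN in Csf2rb, Hivep2, Tmem50b and Lrg1 (0.79, 0.92, 0.53 and 0.43, adjusted p = 0.0156 to 0.0947), again against the same GN libraries. For these 4 genes EV- minus EV+ lay between -0.18 and -0.02, with 95% intervals between -0.45 and 0.19.

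Glucocorticoid-responsive genes leaned upward without a rise called by limma. Of 13 genes, 11 had positive fold changes, with a median of 0.32, and Dusp1, which is also in this list, fell. At an unadjusted p under 0.05 by limma, 5 were higher and 1 lower. In 5 genes every EV- library lay above both GN libraries and in 1 below, as in 12.6% and 12.8% of all genes. Some alternative fits called Tsc22d3 and Ddit4. Tsc22d3, which encodes the glucocorticoid-induced leucine zipper, had 518, 289 and 507 CPM in EV- and 286 and 227 CPM in GN libraries (0.73, adjusted p = 0.442). Ddit4, an inhibitor of mTORC1, had 84.5, 55.6 and 88.1 CPM against 53.0 and 44.0 CPM (0.62, adjusted p = 0.329). EV- replicate 2 lay nearest to GN in both genes.

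In several lists limma called no gene. The 42 interferon-stimulated genes had a median of 0.04, with 2 genes at an unadjusted p under 0.05, and the 79 ribosomal protein genes had -0.08, with 1 such gene. The 26 heat shock and DnaJ chaperones had -0.05, the 23 lysosomal hydrolases -0.02, the 22 genes of glycolysis 0.04 and the 27 of regulated exocytosis 0.02, with 0, 4, 3 and 1 genes at an unadjusted p under 0.05. DESeq2 called 1 gene in each of the lysosomal, glycolysis and exocytosis lists and 0 in the interferon, ribosomal and heat shock lists. In the ribosomal list 68 of 79 genes had negative fold changes, none beyond -0.24. The 17 genes of the IL-10 axis and M2 polarization had a median of 0.06, with Il10 the only called gene, and the receptor genes Il10ra and Il10rb differed by 0.10 and 0.12 (adjusted p = 0.867 and 0.826). The 20 genes of PGE2 receptors and cAMP response had a median of -0.09 and no gene called by limma or DESeq2 (2 at an unadjusted p under 0.05). The lists of mRNA decay and of MAP kinase feedback, with 10 genes each, held Zfp36 and Dusp1 as their only called genes and had medians of -0.05 and -0.12.

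**Figure D4:**
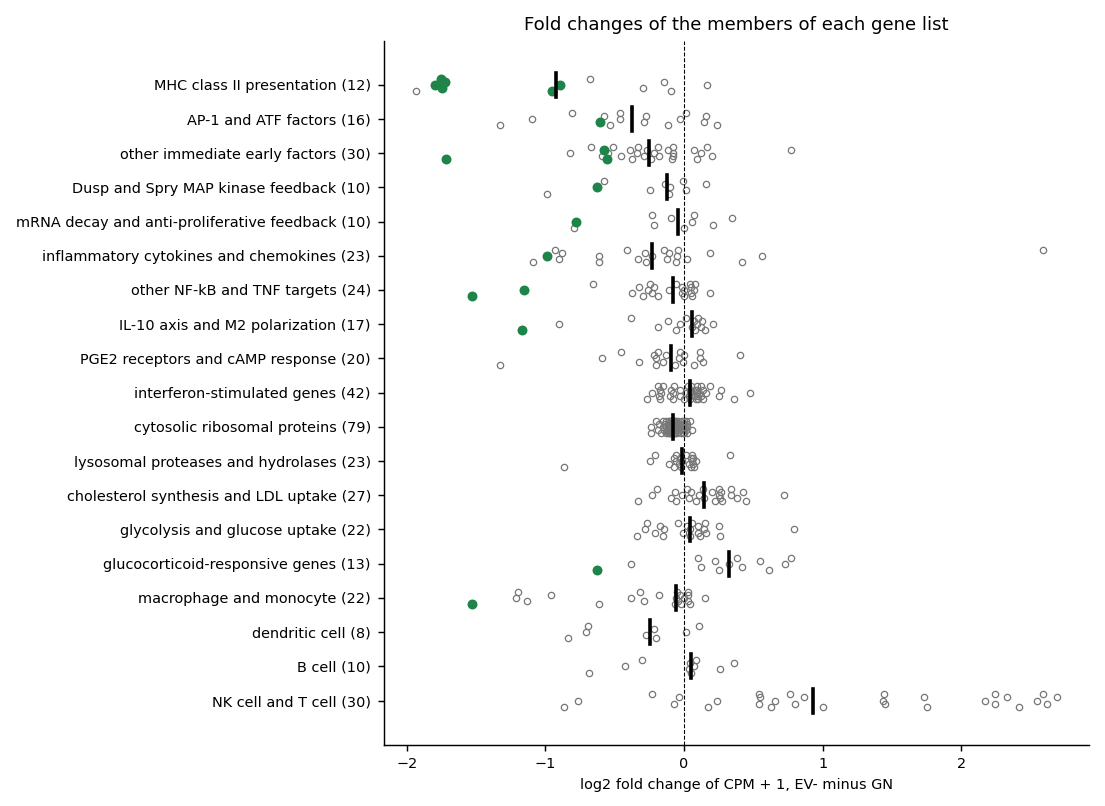
Log2 fold changes of CPM + 1, EV- minus GN, for each member of 19 gene lists, with the number of genes in the table in parentheses. Filled points were called by limma, black bars are list medians and the dashed line is the median of all genes, so that the class II list is seen to the left and the NK cell and T cell list, with no called gene, to the right.

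Of 23 genes that the study's text names, Zfp36 and Hes1 fell and none rose, with 15 negative fold changes. That list was chosen by the study on these samples and is not independent evidence of a direction. Pcsk1, a proprotein convertase, had 207, 216 and 221 CPM in EV- and 162 and 189 CPM in GN libraries (0.29, adjusted p = 0.324). Fcgr2b, the inhibitory IgG receptor gene, had 1.85, 1.63 and 2.57 CPM against 5.84 and 4.29 CPM (-1.01, adjusted p = 0.290).

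Of the 30 NK and T cell markers in the table, of 45 listed, 17 lay above GN in every EV- library and 1 below. The shares of all genes that did so were 12.6% and 12.8%. None was called by limma or by edgeR's quasi-likelihood test, and DESeq2 called 14. At an unadjusted p under 0.05 by limma, 16 markers were higher and 2 lower. The 2 lower ones were Cd5 and Cd7 (adjusted p = 0.524 and 0.532 by limma). Prf1, which encodes perforin, had 335, 51.4 and 24.5 CPM in EV- replicates 1, 2 and 3, against 9.55 and 15.2 CPM in GN (2.55, adjusted p = 0.307). Gzmb, a granzyme of killer cells, had 50.7, 8.10 and 2.96 CPM against 0.631 and 1.47 CPM (2.62, adjusted p = 0.268). Ccl5, a chemokine of cytotoxic cells, had 126, 14.8 and 9.07 CPM against 2.72 and 4.48 CPM (2.59, adjusted p = 0.290). Each EV- library was above both GN libraries in these genes, with replicate 1 far above the other two, and none was called. Cd3e, which defines T cells, was at 0 in both GN libraries and had 2.09, 0.306 and 0.311 CPM in EV- libraries, and Ncr1, a receptor of NK cells, had 8.70, 1.63 and 0.350 CPM.

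Over the 30 markers the median fold change was 0.93. Without EV- replicate 1 the median was 0.42, and Ccl5 was called, and without EV- replicate 3, 7 genes were. Summed over the markers, EV- replicates 1, 2 and 3 had 2871, 1962 and 1831 CPM, against 1848 and 1922 CPM in GN (exact permutation test, two-sided p = 0.6, where the smallest possible is 0.2). Rat macrophages can themselves express Cd4 and Cd8a, and Cd4 alone held 1115 to 1299 CPM in EV- and 1231 and 1300 CPM in GN libraries. The part of NK and T cells in the falls of the other genes was not tested. Without EV- replicate 1 the list of class II genes had a median of -1.004, the 30 other immediate early genes -0.25 and the AP-1 and ATF genes -0.34. Without that library 31 genes were lower and 5 higher in EV-, of which 21 and 4 were among the 29 and 5.

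**Figure D5:**
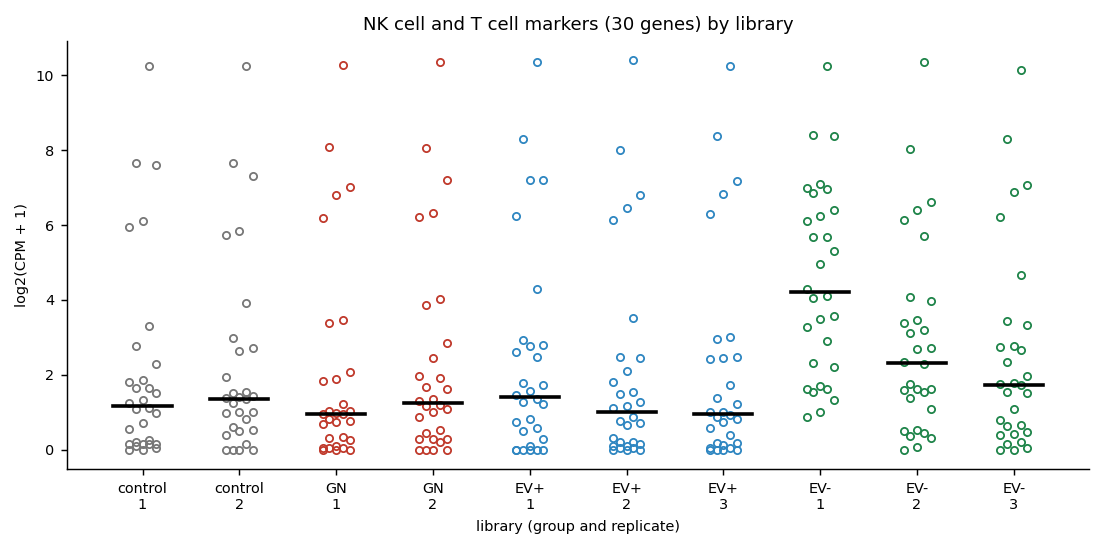
Log2(CPM + 1) of the 30 NK cell and T cell markers in the table, 1 point per gene, in each of the 10 libraries, with the library's median as a black bar. The medians of EV- replicates 1, 2 and 3 are 4.21, 2.31 and 1.75, and those of the other 7 libraries lie between 0.96 and 1.41.

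The 8 dendritic cell markers in the table summed to 148, 158 and 138 CPM in EV- replicates 1, 2 and 3 and to 149 and 146 CPM in GN. The median marker had a log2(CPM + 1) of 1.75, 0.86 and 1.23 in EV- and 1.36 and 1.73 in GN. The sums therefore rest on the more abundant members. No gene was called by limma or DESeq2 (1 at an unadjusted p under 0.05). Of the 8 markers, 6 had negative fold changes, and 3 lay below both GN libraries in every EV- library, as 12.8% of all genes did. The median fold change was -0.24, and -0.47 without EV- replicate 1. Among these markers, Clec9a, a receptor of cross-presenting dendritic cells, lay at 0 to 0.255 CPM in EV- and 0.710 and 1.17 CPM in GN libraries (-0.84, adjusted p = 0.580). B cells also carry class II molecules, and their 10 markers summed to 799 to 969 CPM in EV- and 781 to 896 CPM in GN. Their median marker had a log2(CPM + 1) of 1.93, 1.21 and 1.83 in EV- and 1.60 and 1.76 in GN. This sum too therefore rests on the more abundant members. Of the 10 markers, 2 lay below both GN libraries in every EV- library and 0 above. At an unadjusted p under 0.05 by limma, 1 was higher and 1 lower. The defining B cell gene Ms4a1 lay at 0.778 CPM or less in these 5 libraries. The 22 macrophage and monocyte markers summed to 38549 to 38966 CPM in EV- and 38758 to 39950 CPM in GN, with Vcam1 the only called gene and 6 at an unadjusted p under 0.05, all with lower values in EV-. In that list the complement genes C1qa, C1qb and C1qc, which tissue macrophages make, lay below both GN libraries in every EV- library without passing (-1.13, -1.20 and -0.96, adjusted p = 0.186 to 0.400). Plasma cell, neutrophil, erythroid and mast cell lists had no gene called by limma or DESeq2 (0, 1, 0 and 0 at an unadjusted p under 0.05), with medians of 0.21, 0.04, -0.31 and -0.06, and no platelet marker was in the table. Whether these levels bear on the class II result was not tested.

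Between EV- and EV+ macrophages, 2 of the 29 lower genes were called, Pltp and Plvap. The 29 were chosen on the same EV- libraries. Pltp had 9.53, 8.88 and 6.25 CPM in EV+ replicates 1, 2 and 3, so that each EV- library held less than each EV+ library (-1.46, 95% interval -1.91 to -1.01, adjusted p = 0.0394, and 0.0463 with the replicate block). Plvap had 147, 122 and 124 CPM in EV+ (-0.79, 95% interval -1.04 to -0.54, adjusted p = 0.0394, and 0.00154 with the block). With the block, Lpl was called as well. It had 66.5, 61.8 and 68.4 CPM in EV+ libraries (-0.69, 95% interval -0.94 to -0.44, adjusted p = 0.125, and 0.0730 with the block). Cd83 had 67.8, 80.3 and 78.9 CPM in EV+ and differed by -0.56 (95% interval -0.81 to -0.31, adjusted p = 0.247, and 0.258 with the block). Gpnmb differed by -0.82 (95% interval -1.26 to -0.37, adjusted p = 0.572). The fall from GN was called in EV+ for 4 of the 29 genes, namely Zfp36, Junb, Hes1 and Rgs2, and in EV- for all 29, which does not show that the other 25 differ between EV+ and EV-. Of the 34 genes, none was called between EV- and EV+ without EV+ replicate 1, and 1 was without EV+ replicate 3 or without any 1 of the EV- libraries.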

How the data were processed

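Splenic M2 macrophages were profiled by RNA-seq in 10 libraries (2 control, 2 GN, 3 EV+ and 3 EV-). Per the study's methods, the authors sorted the cells by flow cytometry, made SMART-Seq v4 and Nextera XT libraries, aligned paired reads to rn6 with STAR 2.5.3, counted them with HTSeq 0.6.0, and normalized them with edgeR. The deposited signal values are the authors' gene counts divided by TMM-scaled library sizes (CPM), after removal of genes that stayed below 1 CPM in every library. No column of the table was left unmapped to a sample.

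Dividing each library by the value of 1 read returned whole reads for 100.0% of values at a tolerance of 0.02. The main test was limma 3.58.1 in R 4.3.3 on log2(CPM + 1) with an intensity trend, fitted to all 10 libraries with 6 residual degrees of freedom and Benjamini-Hochberg adjustment over 9003 genes, calling at an FDR under 0.1. Recovered reads were also tested with edgeR 4.0.16 and DESeq2 1.42.0. Scripts were tested on simulated data. Alternatives changed the test, normalization, pseudocount, filter, threshold, block or libraries. For 3 against 2 libraries the smallest exact two-sided permutation p is 0.2, so single sums carry no stronger statement.

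Named genes were the called genes with the largest changes and no overlap between groups, the called members and up to 4 members of smallest p of each list, genes of the study's text, and genes called by both count tools but not by limma. Other list members and markers in the text were chosen after their values were seen. The comparison, the members and the lists were chosen with earlier results of these data known. Symbols altered to dates (18 rows) were not named. EV- and EV+ libraries of the same number deviated together from their group means (correlations across genes 0.309, 0.423 and 0.236), and the block by replicate number is therefore given beside that comparison where it changed a call. The labels do not say what the number marks.

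Gene neighbours and promoter sequences came from RefSeq on GRCr8 and were matched by symbol, with neighbours found for all 34 called genes. P-values measure the spread between these libraries, and the floor of 3 reads covers counting error only.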

Additional observations from a re-analysis of the deposited data

Results flagged for a closer look

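For Pltp and Plvap, the fall relative to GN differed between the dye-negative and the dye-positive macrophages of ASC-treated rats, by the test of EV- against EV+ itself. The log2 difference was -1.46 for Pltp and -0.79 for Plvap (adjusted p = 0.0394 for both by limma, lower in 3 of 3 EV- libraries than in any EV+ library). Against GN, EV- libraries differed by -2.24 and -1.19, and EV+ libraries by -0.78 and -0.40 (adjusted p = 0.467 and 0.515 in EV+). Without EV+ replicate 1 neither gene was called between EV- and EV+.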

How the results depend on the processing

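The 34 genes (29 lower, 5 higher) called between EV- and GN became 113 (59 and 54) with DESeq2, 126 (72 and 54) with edgeR's likelihood-ratio test, 6 (6 and 0) without the intensity trend and 21 (17 lower) at an FDR under 0.05. They stayed between 30 and 36 with edgeR's quasi-likelihood test, RLE size factors, other pseudocounts and filters, and a fit of the 5 libraries alone. Leaving out 1 library gave 7 to 36 genes, 5 to 31 of them lower and 1 to 9 higher, with the fewest without GN replicate 1. EV- and GN libraries shared only a number (correlations across genes 0.0320 and 0.0609), and with the replicate block 53 genes were called (12 higher). Between EV- and EV+, 2 of the 34 genes became 9 with DESeq2, 12 with the likelihood-ratio test, 0 without the trend, 4 with the block and 0 to 2 without 1 library. Called AP-1 and ATF genes numbered 2 with either DESeq2 or the likelihood-ratio test, 0 without the trend, 3 with the block and 0 to 3 without 1 library. Called genes among the other immediate early factors numbered 6 with either count test, 0 without the trend, 1 at an FDR under 0.05 and 0 to 2 without 1 library. Called class II genes numbered 1 without the trend and 1 to 7 without 1 library, and their median was -1.42 with a pseudocount of 0.1. The NK and T cell median was 3.39 with DESeq2, 3.38 with both edgeR tests and 2.41 with a pseudocount of 0.1, and its called genes numbered 14 with DESeq2, 13 with the likelihood-ratio test, 2 with the block and 0 to 7 without 1 library. None of the 34 called genes changed direction under any of these alternatives. Of the 141 genes named by the stated rules 8 did, none of them called under any of them. Other genes in the text did too, such as RT1-DMa (-0.17 to 0.024 without 1 library), Csf1r, Mrc1 and Arg1. Leaving out 1 library gave log2 fold changes of -0.32 to 0.27 for Chst1, -0.24 to 0.41 for Col3a1, -0.0044 to 0.18 for Csf3r, -0.29 to 0.36 for Hdc, -0.064 to 0.20 for Pdgfrb, -0.037 to 0.11 for Pecam1, -0.47 to 0.069 for Stip1 and -0.068 to 0.63 for Tfrc. The block gave 0.051 for Chst1, and a pseudocount of 0.1 gave -0.041 for Col3a1 and -0.17 for Hdc. The causes of these changes were not tested. With 2 GN libraries, the spread within GN limits every call, and low genes such as Pvalb, Clec9a and RT1-DOa lie near the floor.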
